A study of Sus scrofa with 21 samples.

Results

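The comparison set all 9 arrays of conceptus attachment sites against all 9 arrays of inter-sites, the stretches of uterine lining between conceptuses, over days 13, 18 and 24 of pregnancy together. These 18 arrays were taken by their labels from the 21 arrays of a study of gene expression in pig endometrium, the inner lining of the uterus, during implantation. The groups were attachment sites on days 13, 18 and 24 and inter-sites on days 13, 18 and 24, with 3 arrays in each. All 6 groups came from Large White sows that were inseminated and pregnant, and the labels name 3 sows per day, each of which gave tissue of both kinds. The other 3 arrays, of sows given inactivated sperm, have no site type and were not compared here. The labels do not say which arrays share a sow, so the sites were compared without pairing. The p-values measure the spread between these arrays, which were not shown to be independent samples.

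Pig conceptuses do not invade the uterus. They elongate, then attach to the surface epithelium, while the uterine glands secrete the proteins that feed them, and the trophoblast, the outer cell layer of the conceptus, releases oestrogens and interferons that act on the lining. At an attachment site the lining touches this trophoblast, whereas inter-site lining lies away from the developing conceptus. Endometrium taken at either place is a mixture of epithelium, glands, stroma, vessels and immune cells, and in such bulk tissue fewer cells of a type and less RNA per cell cannot be told apart.

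No gene differed between the sites past the threshold with the 3 days in 1 fit. Limma called 0 of 30032 probes at an adjusted p under 0.05 (0% of probes, lowest adjusted p = 0.472), and 3060 probes (10.2%) had an unadjusted p under 0.05, 1345 higher (4.48%) and 1715 lower (5.71%) at attachment sites. That split depends on how arrays were scaled: with each array centred on its median it was 2388 higher and 720 lower. Probes matched to a gene symbol leaned the other way from all probes. Of 2016 named genes tested, 192 (9.52%) had an unadjusted p under 0.05 and a higher mean at attachment sites, and 39 (1.93%) had a lower one. The difference was positive for 1326 named genes (65.8%), with a median of 0.09 on the log2 scale against a median standard error (SE) of 0.21. Over all probes the median difference was -0.03, and 0.06 with median centring. The lean of the named genes followed their level: with the genes put in 4 equal bins of 504 by mean level, the median difference was 0.003 in the lowest bin, and 0.07, 0.10 and 0.16 in the next bins up to the highest. In the highest bin 411 of 504 genes had a positive difference, and 90 had an unadjusted p under 0.05 with higher attachment-site means, against 1 with lower ones. All differences below are log2 values, attachment site minus inter-site with day as a covariate, and all levels are log2 signal minus the 75th percentile of the same array, so that a level of 0 equals that percentile. None of the genes named below passed the adjusted threshold in this comparison: those with an unadjusted p under 0.05 had adjusted p values between 0.472 and 0.489 in limma. A p under 0.05 in the counts below is unadjusted. Of 74 genes chosen for description that had such a p, the difference was over 1.5 times smaller for 27 after normexp background correction, for 30 without day 24, and for 13 without a pair of inter-site libraries described next. The genes are described by their levels, their differences with SE, and how far the arrays of the sites overlap.

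**Figure D1:**
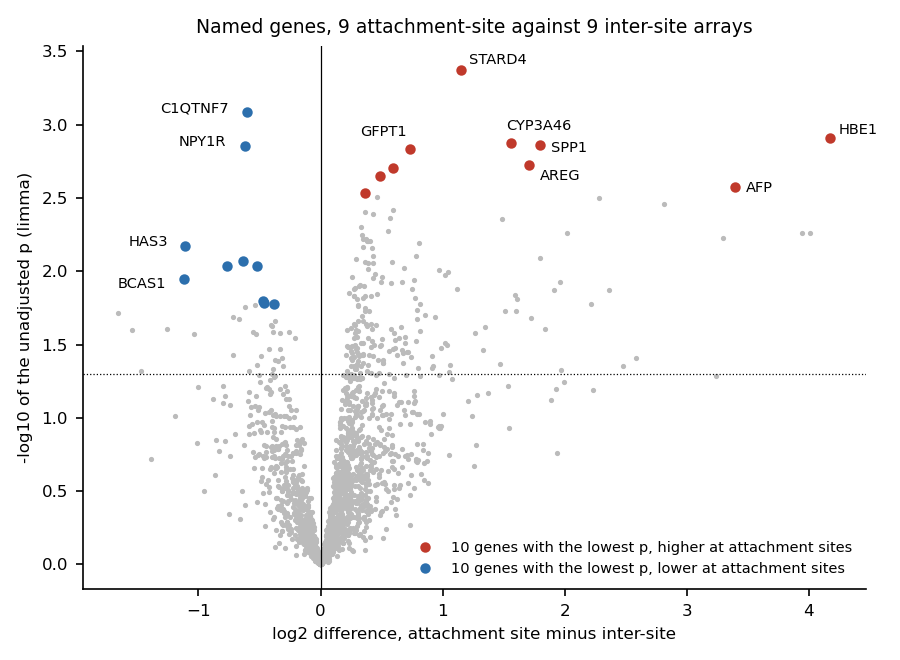
Each point is a named gene, with the log2 difference (attachment site minus inter-site, 3 days together) on the x axis and -log10 of limma's unadjusted p on the y axis. The dotted line marks an unadjusted p of 0.05: 192 genes lie above it on the positive side and 39 on the negative side, and HBE1 and AFP lie farthest right among the labelled genes.

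On each array 63.2% to 77.1% of the probes gave signal well above background, with a ratio of median signal to median background of 2.38 to 3.92. DKK1, a secreted WNT inhibitor, set a pair of inter-site libraries apart: its level was -3.24 on day 13 replicate 1 and -6.13 on day 24 replicate 3, against 3.54 to 5.67 on the 9 attachment-site arrays. Across probes, which are not independent replicates, these libraries correlated best with each other (0.970). ACP5, uteroferrin, the iron-binding protein of the pig's uterine glands, lay between 8.95 and 9.47 on the attachment-site arrays. On the inter-site arrays ACP5 lay between 6.03 and 9.36, with its lowest levels on the same pair of libraries. Where a described gene with p under 0.05 moved by over 1.5 times without these libraries, that value is given. At 64 probes that were on in some libraries and off in others, the 18 libraries fell into 11 sets, 4 of which held both sites and 3 of which held replicates of 1 group. Slides were not balanced: the attachment-site arrays lay on slides 1 to 4, while 4 of the 9 inter-site arrays lay on slides 5 and 6. Only 3 pairs of arrays had both sites of a day on 1 slide, on slide 3 for day 13 and on slides 4 and 2 for day 24, and the inter-site array of the slide 2 pair is the low-DKK1 library of day 24.

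The 5 largest differences of named genes were those of HBE1, PAG6, PLET1, AFP and PPAG3, genes known from the conceptus and its blood. HBE1, the embryonic epsilon chain of haemoglobin, had a lowest, median and highest level of -3.67, 4.46 and 8.60 at attachment sites, against -5.22, -0.56 and 4.34 at inter-sites. The difference was 4.17 (SE 1.08), 18.1-fold, and it was 0.80 on day 13, 4.49 on day 18 and 7.24 on day 24. The site ranges overlapped over the 3 days, but on days 18 and 24 every attachment-site array lay above every inter-site array. Within slides it was 1.60 (slide 3, day 13), 6.64 (slide 4, day 24) and 10.89 (slide 2, day 24), and without the pair of low-DKK1 libraries the pooled value was 3.42. AFP, alpha-fetoprotein, made by yolk sac and fetal liver, lay at -5.77, -3.56 and 3.28 at attachment sites, against -7.54, -5.85 and -2.11 at inter-sites, a difference of 3.40 (SE 0.96). AFP was well above background on 8 of 9 attachment-site and 3 of 9 inter-site arrays. It was tested only through attachment-site groups, and its pooled difference was 1.49 after normexp background correction. On day 13 no inter-site array had AFP well above background, which makes AFP at least 1.64-fold higher at attachment sites on that day.

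PAG6, a pregnancy-associated glycoprotein of the aspartic protease family that trophoblast secretes, had levels of -4.08, 2.11 and 8.17 (lowest, median and highest) at attachment sites, against -7.09, -1.69 and 5.78 at inter-sites. The difference was 4.01 (SE 1.26), and 2.56 without the low-DKK1 libraries. Within slides it was -1.05 (slide 3, day 13), 2.15 (slide 4, day 24) and 13.14 (slide 2, day 24). PAG6 was also measured between conceptuses: inter-site replicate 2 reached 2.13 on day 18 and 5.78 on day 24. PPAG3, another member of that family, was not well above background on any of the 6 arrays of day 13 and reached 1.41, 3.26 and 3.09 on day 24 at attachment sites, against -3.04, 1.0 and -7.67 at inter-sites. Its pooled difference was 3.29 (SE 1.05), and 1.41 after normexp. PPAG3 was well above background on 6 attachment-site and 3 inter-site arrays. The members of the PAG family, like the haemoglobin chains, are close in sequence, so 1 probe may read several. GATA3, a transcription factor of trophoblast and of some lymphocytes, had a difference of 0.98 (SE 0.42). On days 13, 18 and 24 it was -0.09, 0.55 and 2.485, and without day 24 the pooled value was 0.23.

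Of 15 markers of conceptus and trophoblast on the array 11 were tested, with a median difference of 0.11. PAG6, PPAG3 and GATA3 had p under 0.05 and higher attachment-site means, and 0 markers had lower ones. PPAG3 passed the filter only through attachment sites, so its p rests partly on readings at background. CYP19A3 was not well above background on any inter-site array and passed the filter only through the attachment sites of day 24, so it is given below as a bound. Counting CYP19A3, 36.4% of the list had such a p, against 9.52% of all named genes. These shares cannot be compared directly, because PPAG3 and CYP19A3 passed the filter only at the site where they are higher. The list median of 0.11 lay near the 0.09 of all named genes. The trophoblast factors TFAP2C, GATA2 and GATA6 had differences of -0.27, 0.11 and 0.08. The 2 probes of HAND1, another such factor, disagreed, at -0.39 and 2.81. The list's signal, summed in multiples of the 75th percentile, ranged from 9.95 to 330.9 at attachment sites, against 10.2 to 78.8 at inter-sites. Of 11 markers of yolk sac and embryonic blood, 10 had positive differences (90.9%, against 65.8% of all named genes). HBE1, AFP, SERPINA1 and APOC3 had p under 0.05 (36.4%, against 9.52%), but AFP passed the filter only through attachment sites. The median was 1.04, and 0.64 without the low-DKK1 libraries. SERPINA1, a protease inhibitor of plasma, had a difference of 2.21 (SE 0.83), and APOC3, an apolipoprotein, of 1.04 (SE 0.44). On days 13, 18 and 24 SERPINA1 had 0.99, 0.74 and 4.91, and APOC3 had 0.24, 0.40 and 2.48. Without day 24 SERPINA1 had 0.87 and APOC3 0.32, and after normexp they had 1.38 and 0.37. The summed signal of that list was 351 to 886 at attachment sites and 27.3 to 473 at inter-sites, where the low-DKK1 libraries had 27.3 and 63.0. RBP4, a retinol-binding protein that pig uterine glands also secrete, made up a median of 81.4% of the sum at attachment sites and 85.0% at inter-sites, and its lowest levels were those of the low-DKK1 libraries (1.98 and 5.33). Without RBP4 the sum was 39.3 to 431.2 at attachment sites, against 22.9 to 89.7 at inter-sites. PLET1, a placenta-expressed gene added after its values were seen, had a difference of 3.95 (SE 1.24), and 2.49 without the low-DKK1 libraries, and was well above background on all 9 attachment-site and 8 of 9 inter-site arrays. How much conceptus RNA contributes to the other differences below was not tested.

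**Figure D2:**
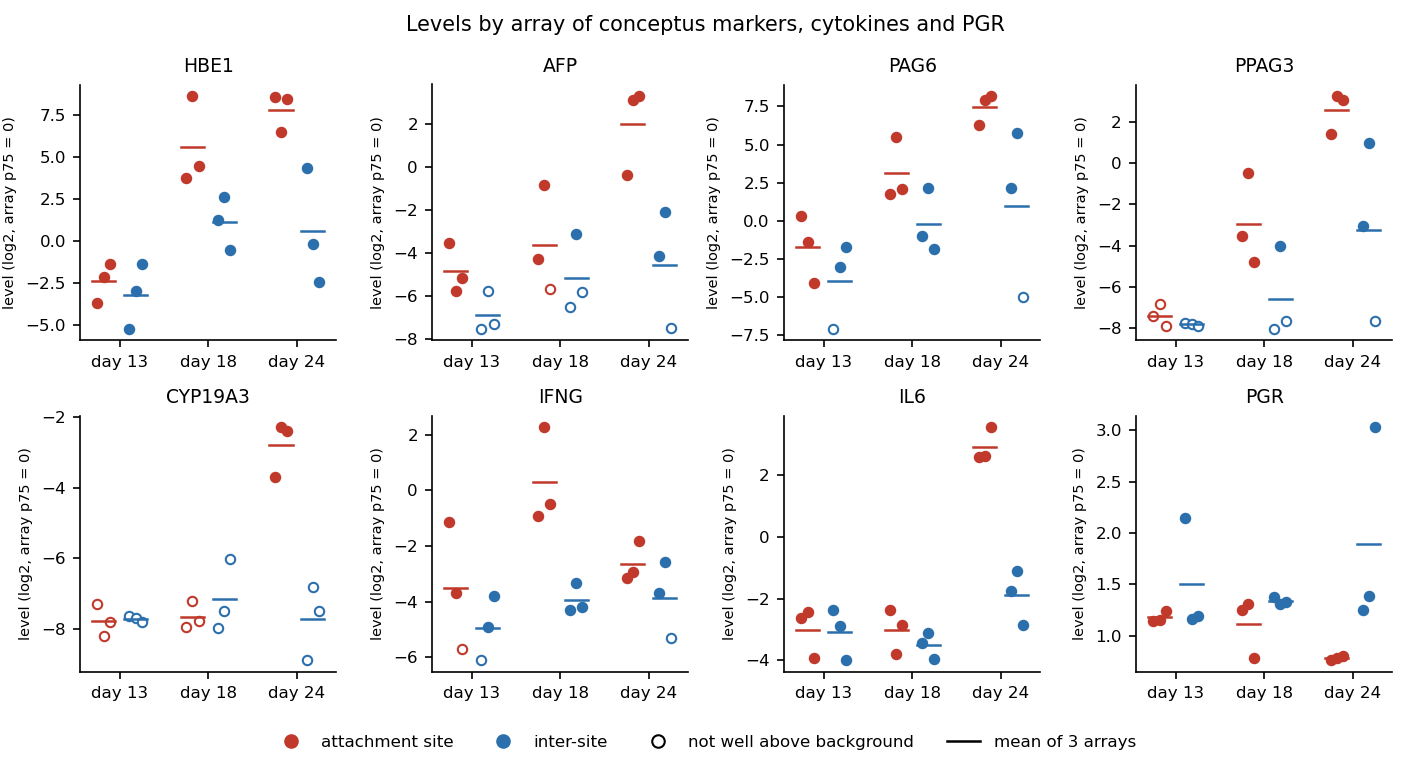
Points are the levels of 8 genes on each array (y axis, log2 signal minus that array's 75th percentile) by day and site, open where the probe was not well above background, and bars are means of 3 arrays. HBE1, PAG6, PPAG3, CYP19A3 and IL6 have their highest attachment-site means on day 24, and IFNG has its highest on day 18. The lowest PGR mean is that of the attachment-site arrays of day 24.

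Outside the conceptus lists, the lowest p belonged to STARD4, a carrier of cholesterol between membranes. Its level was -2.34, -0.84 and 0.60 at attachment sites (lowest, median and highest), against -3.09, -1.98 and -1.18 at inter-sites, a difference of 1.15 (SE 0.26), or 2.22-fold. The attachment-site arrays of days 18 and 24 all lay above the inter-site arrays of the same day, and those of day 13 did not. STARD4 had 0.95 without the low-DKK1 libraries and 1.41 in the fit with slide as a block. In the same-slide pairs it had 0.73 (slide 3), 1.79 (slide 4) and 2.66 (slide 2). SPP1, osteopontin, a secreted adhesive protein that binds integrins of trophoblast and uterus, lay at -0.61, 5.78 and 8.33 at attachment sites, against -0.09, 3.47 and 6.69 at inter-sites. Its difference was 1.80 (SE 0.47), with 0.24 on day 13, 3.11 on day 18 and 2.05 on day 24. On days 18 and 24 SPP1 was higher on every attachment-site array than on any inter-site array of that day, while within slide 3 on day 13 it was lower at the attachment site (-1.96).

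AREG, amphiregulin, a ligand of the EGF receptor, had levels of -6.14, -3.05 and -1.22 at attachment sites, against -6.93, -5.06 and -2.56 at inter-sites. The difference of 1.71 (SE 0.46) had similar values on the 3 days (1.99, 1.79 and 1.34), but was -0.13 within slide 4 on day 24 and 0.49 after normexp background correction. AREG was well above background on 8 attachment-site and 6 inter-site arrays. GFPT1, which starts the hexosamine pathway that supplies sugars for glycoproteins, lay at -1.66, -1.11 and 0.20 at attachment sites, against -2.96, -1.64 and -0.71 at inter-sites. Its difference was 0.73 (SE 0.19), with 0.75, 0.75 and 1.84 within slides 3, 4 and 2. CYP3A46, a cytochrome P450, had 1.56 (SE 0.40).

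Smaller differences with little spread between days were found for PLGRKT, a plasminogen receptor (0.42, 0.62 and 0.73 on days 13, 18 and 24, pooled SE 0.16), and for TXN, thioredoxin (0.34, 0.43 and 0.69, pooled SE 0.14). PGK1, which makes ATP in glycolysis, had levels of 3.97, 4.54 and 5.38 at attachment sites, against 3.62, 4.20 and 5.07 at inter-sites, and a difference of 0.37 (SE 0.11). Its 6 probes had differences between 0.18 and 0.43. ATP5I, a subunit of ATP synthase, was the only named gene whose attachment-site arrays lay above the inter-site arrays within each of the 3 days (1 of 2016, 0.0496%), with a difference of 0.35 (SE 0.13). The reverse order within each day was met by 0 genes (0%), and for 0 genes (0%) did the 9 arrays of the sites not overlap over all days.

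**Figure D3:**
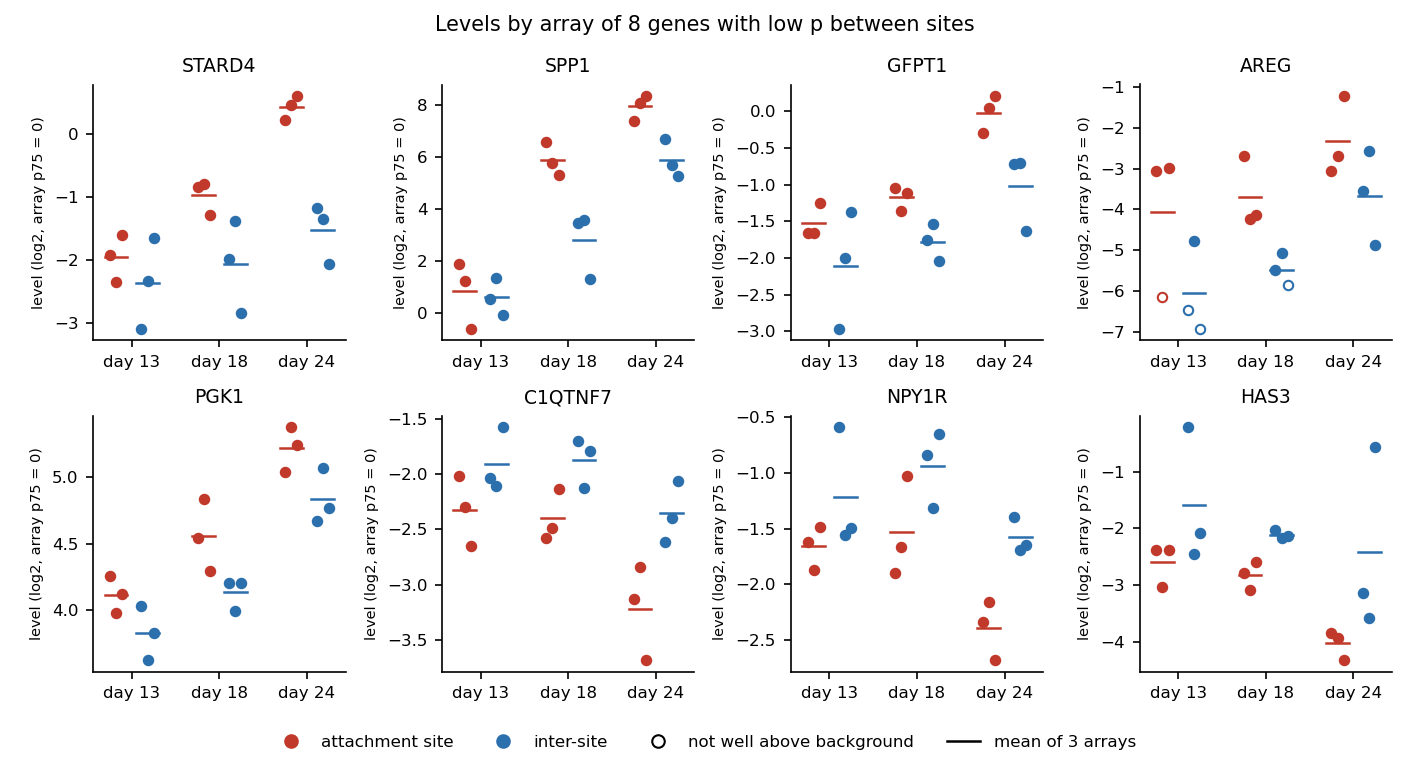
Points are the levels of 8 genes with low p on each array (y axis, log2 signal minus that array's 75th percentile) by day and site, open where the probe was not well above background, and bars are means of 3 arrays. On day 24 the attachment-site arrays of STARD4, SPP1 and GFPT1 lie above the inter-site arrays and those of C1QTNF7, NPY1R and HAS3 below them.

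The 10 genes with the lowest p among those with lower attachment-site means had differences of -0.38 to -1.11. C1QTNF7, a secreted protein of the C1q and TNF-related family, lay at -3.68, -2.58 and -2.02 at attachment sites, against -2.61, -2.06 and -1.58 at inter-sites (difference -0.60, SE 0.15). NPY1R, a receptor for neuropeptide Y, lay at -2.68, -1.87 and -1.03 at attachment sites, against -1.70, -1.40 and -0.59 at inter-sites (difference -0.62, SE 0.16). Both had negative differences on each day, and their site ranges overlapped. HAS3, which makes hyaluronan, the matrix sugar, had -4.31, -3.02 and -2.37 at attachment sites and -3.57, -2.14 and -0.22 at inter-sites. The HAS3 difference of -1.11 (SE 0.36) was -0.58 without the low-DKK1 libraries, which had its highest levels, and -3.76 within slide 2 on day 24.

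BCAS1 had a difference of -1.11 (SE 0.39), and -0.67 without the low-DKK1 libraries, BCO1, which cleaves beta-carotene to retinal, had -0.77 (SE 0.26), and SLC27A1, a fatty acid transporter, had -0.38 (SE 0.14). IFN-DELTA-1, an interferon of the pig trophoblast, had levels of -3.42, -3.12 and -2.69 at attachment sites, against -3.22, -2.55 and -1.62 at inter-sites, a difference of -0.47 (SE 0.18). KBTBD3, DSPP and BHMT, at -0.64, -0.52 and -0.47, were well above background on 3, 5 and 3 attachment-site and 5, 9 and 4 inter-site arrays, and their differences were 0.09, 0.03 and 0.21 after normexp background correction, with the sign turned. For the other 7 of these 10 genes normexp gave smaller differences of the same sign, from -0.38 for HAS3 to -0.001 for BCO1, and BCAS1 had -0.16. BCO1 was well above background on 3 attachment-site and 8 inter-site arrays. BCO1 and KBTBD3 passed the filter only through inter-sites, where they are higher, so their p values rest partly on readings at background.

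The nuclear receptors of the ovarian steroids were among the genes with lower attachment-site means. ESR1, the oestrogen receptor alpha, lay at -0.24, 0.38 and 0.89 at attachment sites, against 0.12, 0.94 and 2.03 at inter-sites (difference -0.62, SE 0.23). PGR, the progesterone receptor, lay at 0.77, 1.14 and 1.31 at attachment sites, against 1.16, 1.33 and 3.03 at inter-sites (difference -0.55, SE 0.23). The highest PGR levels were those of the low-DKK1 libraries, and without them the differences were -0.25 for PGR and -0.33 for ESR1. On day 24 PGR lay between 0.77 and 0.80 on the attachment-site arrays, below its inter-site levels of 1.25, 1.38 and 3.03.

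Of 21 tested genes of steroid receptors and metabolism, ESR1 and PGR had p under 0.05 and lower attachment-site means, and the list had a median of 0.18, and 0.03 without the low-DKK1 libraries. HSD17B1, which makes oestradiol (1.06, SE 0.49), and AKR1C1, an aldo-keto reductase of steroids (2.48, SE 1.14), had p under 0.05 and higher means, and 0.65 and 1.30 without those libraries. CYP19A3, a pig aromatase that makes oestrogens, was well above background only at the attachment sites of day 24. The 4 probes of AKR1C1 disagreed, with differences from -1.0 to 2.55. HSD17B1 had differences of 0.10, 0.04 and 3.05 on days 13, 18 and 24, and AKR1C1 of 1.67, -0.93 and 6.70. Of 11 genes of prostaglandin synthesis and reception, 10 had positive differences (90.9%, against 65.8% of all named genes). Their median was 0.37, and 0.09 without the low-DKK1 libraries. AKR1B1, a prostaglandin F synthase in cattle, had 1.11 (SE 0.40), and CBR1, which converts prostaglandin E2 to F2alpha, had 0.71 (SE 0.31). These too were day 24 differences for the most part: AKR1B1 had -0.02, 0.88 and 2.48 on days 13, 18 and 24, and CBR1 0.15, -0.10 and 2.06. Without day 24 AKR1B1 had 0.43 and CBR1 0.03.

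Genes that present antigen leaned to attachment sites. All 21 tested members had positive pooled differences, against 65.8% of all named genes and 411 of 504 in the bin with the highest level. The median was 0.35, and 6 members had p under 0.05 (28.6%, against 9.52% of all named genes). The day medians were -0.02 on day 13, 0.87 on day 18 and 0.18 on day 24, and the pooled median was 0.15 with slide as a block. SLA-DOA, a class II chain that controls peptide loading, lay at 0.001, 1.14 and 2.04 at attachment sites, against -0.64, 0.29 and 1.49 at inter-sites (difference 0.77, SE 0.29). SLA-DOB, its partner chain, had 0.60 (SE 0.25), the class II chain SLA-DQA1 0.49 (SE 0.21), the class I chain SLA-5 0.41 (SE 0.19), its light chain B2M 0.35 (SE 0.15), and PSME2, an activator of the immunoproteasome, 0.42 (SE 0.17). With slide as a block the p of these 6 genes lay between 0.156 and 0.423. SLA genes share sequence, so probes may read more than 1 of them.

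IFNG, interferon gamma, which pig trophoblast and natural killer cells secrete, lay at -5.68, -1.83 and 2.26 at attachment sites, against -6.09, -4.21 and -2.56 at inter-sites (difference 2.29, SE 0.66). On day 18 its levels were -0.93, 2.26 and -0.49 at attachment sites, against -4.31, -3.31 and -4.21 at inter-sites, and the difference was 4.22, against 1.42 on day 13 and 1.21 on day 24. Within slides it was -0.78 (slide 3, day 13), -0.36 (slide 4, day 24) and 3.47 (slide 2, day 24). After normexp the pooled difference was 1.24. IFNG was among the 2 of 25 interferon-response genes with p under 0.05 (8.0%, against 9.52% of all named genes), and that list had a median of 0.20.

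Of 33 cytokines and chemokines, 4 had p under 0.05 and higher attachment-site means (12.1%, against 9.52% of all named genes), and the median was 0.15, and 0.002 with slide as a block. Among them were IL6 (1.80, SE 0.60) and the chemokines CCL8, which draws monocytes (0.91, SE 0.40), and XCL1, which draws dendritic cells (0.51, SE 0.23). Of 17 tested markers of T and NK lymphocytes, 14 were positive (82.4%, against 65.8% of all named genes), with a median of 0.30. Of 21 tested markers of macrophages and dendritic cells, 18 were positive (85.7%), with a median of 0.25. These 2 lists had day 18 medians of 0.80 and 0.82, and of -0.12 and -0.28 on day 13. Without the low-DKK1 libraries the lymphocyte median was 0.41 and the macrophage median 0.47. Blocking on slide instead gave 0.13 for the lymphocyte list and 0.12 for the macrophage list, against 0.09 for all named genes. Among these markers CD14, a receptor for bacterial lipopolysaccharide on monocytes, had 0.69 (SE 0.29), and 0.41 without those libraries, and LYZ, lysozyme, 1.02 (SE 0.43); 0 lymphocyte markers had p under 0.05. The lymphocyte list's summed signal was 5.37 to 20.5 at attachment sites, against 5.29 to 15.1 at inter-sites. The part of immune cell numbers in the differences of antigen presentation and interferon genes was not tested.

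Of 28 secreted uterine proteins, 22 had positive differences (78.6%, against 65.8% of all named genes) and 5 had p under 0.05 (17.9%, against 9.52%). The list had a median of 0.53, and 0.27 without the low-DKK1 libraries. PGLYRP1, which binds bacterial cell wall, lay at -3.74, -0.57 and 3.80 at attachment sites, against -4.80, -3.66 and -0.64 at inter-sites (difference 2.81, SE 0.83), and its difference on day 24 was 5.96. SAA3, an acute-phase serum amyloid, had 1.35 (SE 0.54), with 1.86, 2.31 and -0.13 on days 13, 18 and 24. CST3, a cysteine protease inhibitor, had 0.78 (SE 0.33), with -0.43, 1.04 and 1.74 on days 13, 18 and 24. LYZ and SPP1, given above, complete the 5. PIGR, the carrier of antibodies across epithelium, listed with B and plasma cell genes (3 tested), had -0.66 (SE 0.26). Of 26 genes of complement and coagulation, 20 had positive differences (76.9%, against 65.8% of all named genes) and 3 had p under 0.05 (11.5%, against 9.52%), with a median of 0.31. They were plasminogen PLG (1.84, SE 0.75, and 1.19 without the low-DKK1 libraries), the protease inhibitor SERPINE2 (0.79, SE 0.31) and complement C3 (0.51, SE 0.23). PLG was well above background on 5 attachment-site and 3 inter-site arrays and was tested only through the attachment sites of day 24. It had 0.47 after normexp, 0.75 without day 24 and -3.355 within slide 3 on day 13. SERPINE2 had -0.20 on day 13 and 0.39 without day 24.

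Genes of glycolysis and the response to hypoxia had similar differences on the 3 days. Of 11 tested, 10 had positive differences (90.9%, against 65.8% of all named genes) and 4 had p under 0.05 (36.4%, against 9.52%). The list had medians of 0.29 on day 13, 0.35 on day 18, 0.28 on day 24 and 0.28 over the days, which lies above the 0.16 of the bin of genes with the highest level. Those with p under 0.05 were PGK1, LDHA, lactate dehydrogenase (0.58, SE 0.24), PDK1, which inhibits pyruvate dehydrogenase (0.41, SE 0.15), and GPI, an isomerase of glucose phosphate (0.28, SE 0.12). HIF1A, the oxygen-regulated transcription factor, counted with angiogenesis here, had 0.33 (SE 0.15). With slide as a block the list had a median of 0.27, and quantile normalization gave 0.19.

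Carriers and channels did not lean one way. Of 23 nutrient transporters, 12 had positive and 11 negative differences, with a median of 0.10, and -0.02 without the low-DKK1 libraries. Those with p under 0.05 were the glucose carrier SLC2A2 (1.60, SE 0.62), the amino acid carriers SLC7A2 (0.82, SE 0.33) and SLC3A1 (0.80, SE 0.37), SLC27A1, and the metal ion carrier SLC11A1 (-0.40, SE 0.16, with its 2 probes at -0.40 and 0.11). Without the low-DKK1 libraries SLC7A2 had 0.46 and SLC3A1 0.44. SLC2A2 was well above background on 3 attachment-site arrays and 1 inter-site array, all of day 24. It was tested only through the attachment sites of that day, and had 0.44 after normexp. Of 18 genes of calcium, water and ion handling, 9 were positive and 9 negative: the chloride channel CFTR (0.92, SE 0.42) and the water channel AQP8 (1.91, SE 0.69) had higher attachment-site means, and the water channel AQP3 (-1.47, SE 0.69) and the sodium pump subunit ATP1B1 (-0.49, SE 0.22) lower ones. CFTR had -0.41, 2.45 and 0.72 on days 13, 18 and 24, and AQP8 -0.64, 2.03 and 4.36, so both leaned to inter-sites on day 13, and without day 24 AQP8 had 0.69. AQP3 had -0.85 without the low-DKK1 libraries.

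Among adhesion molecules and mucins (21 tested, median 0.18), VCAM1, which binds leukocyte integrins, lay at 2.68, 4.01 and 6.05 at attachment sites, against 2.06, 3.1 and 5.4 at inter-sites (difference 0.97, SE 0.33), and SPP1 was the other with p under 0.05. TIMP1, an inhibitor of matrix metalloproteinases, was the 1 of 18 matrix genes with p under 0.05 (0.60, SE 0.18; list median 0.04). RAMP1, a partner of calcitonin-family receptors, was named among 20 angiogenic and vasoactive genes (0.35, SE 0.15). IGFBP2, which binds insulin-like growth factors, and AREG were named among 31 growth factor, WNT and homeobox genes (IGFBP2 0.63, SE 0.28). The phosphatase CDKN3 was named among 17 cell cycle genes (0.51, SE 0.21). Of these 17 genes 15 were positive (88.2%, against 65.8% of all named genes), with a median of 0.22. Of 29 genes of lipid metabolism, 23 had positive differences (79.3%, against 65.8% of all named genes) with a median of 0.10, and STARD4 was the 1 with p under 0.05. Cytosolic ribosomal proteins (29 tested) and immediate early and heat shock genes (11 tested) had 0 members with p under 0.05 and medians of 0.03 and 0.05.

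**Figure D4:**
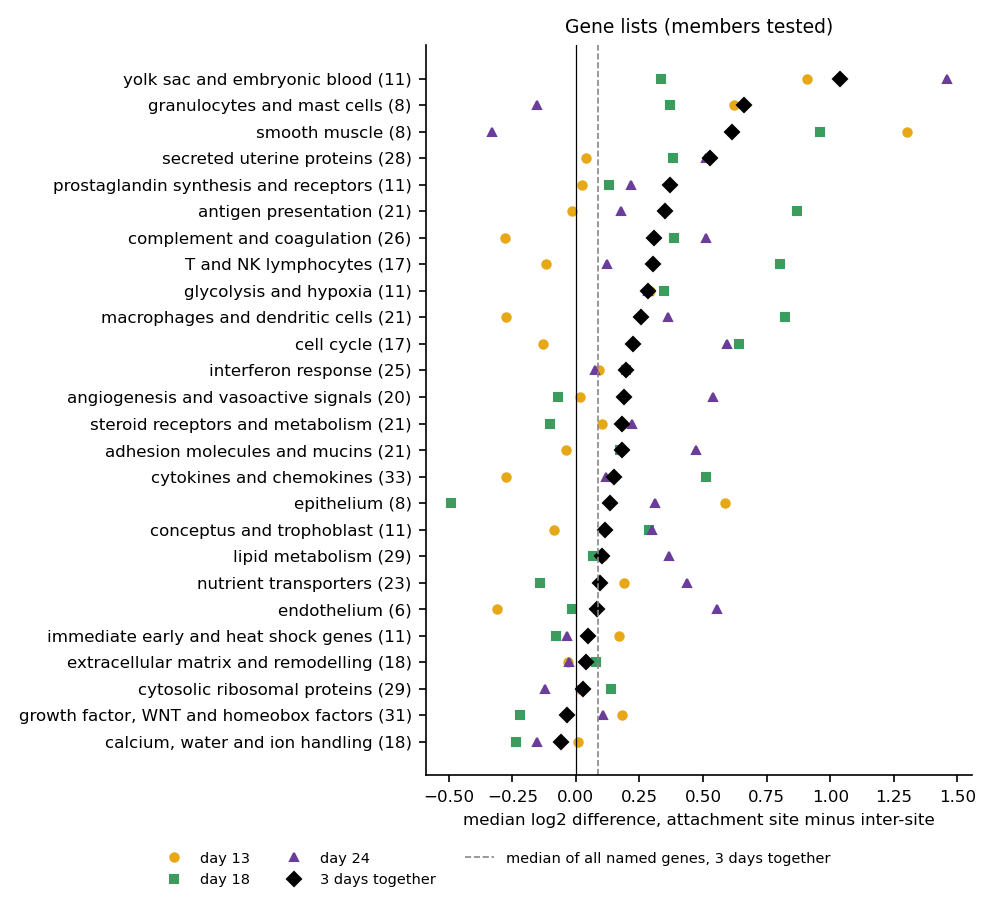
Each row is a gene list with at least 5 tested members (their number in brackets), with the median log2 difference, attachment site minus inter-site, on the x axis for each day and for the 3 days together; the dashed line is the median of all named genes (0.09). Antigen presentation, lymphocyte and macrophage markers have their highest medians on day 18, and glycolysis has nearly the same median on each day.

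The markers of tissue structure were measured at both sites. All 8 epithelial markers were tested, with 0 at p under 0.05, a median of 0.13, and -0.10 without the low-DKK1 libraries, and day medians of 0.59, -0.49 and 0.31. Their summed signal was 74.8 to 242.8 at attachment sites, against 102.7 to 203.5 at inter-sites. Endothelial markers (6 tested) had a median of 0.08. Smooth muscle markers (8 tested) had a median of 0.62, 0.27 with slide as a block and 0.37 without the low-DKK1 libraries, and 0 had p under 0.05. Their summed signal varied widely within both sites, from 57.4 to 1973 at attachment sites and from 51.0 to 777 at inter-sites. THY1, 1 of 2 tested markers of stromal fibroblasts and in other species also a marker of lymphocytes, had 1.33 (SE 0.58). Its differences on days 13, 18 and 24 were -0.74, 2.28 and 2.45. The 1 tested marker of ciliated epithelium had -0.38. Granulocyte and mast cell markers (8 tested, PGLYRP1 among them) had a median of 0.66, and 0.08 without the low-DKK1 libraries.

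Whether the site difference itself changed between the days was asked by an F-test of the site-by-day terms. It called 1 of 30032 probes (0.00333%, adjusted p = 0.0348), an unnamed probe, and 0 with slide as a block (lowest adjusted p = 0.449) or without the low-DKK1 libraries (0.104). The called probe passed the filter only through the attachment sites of day 24, so its p rests partly on readings at background. In the unblocked fit of all 18 arrays 1324 probes (4.41%) had an unadjusted p under 0.05. Of the named genes, 431 (21.4%) had positive differences on each of the 3 days and 176 (8.73%) negative ones on each day. Among the 10 genes with the lowest p on either side, the day values had the same sign on each day for all but KBTBD3, which was well above background on 8 of the 18 arrays. The choice of these genes by their pooled difference favours such agreement.

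**Figure D5:**
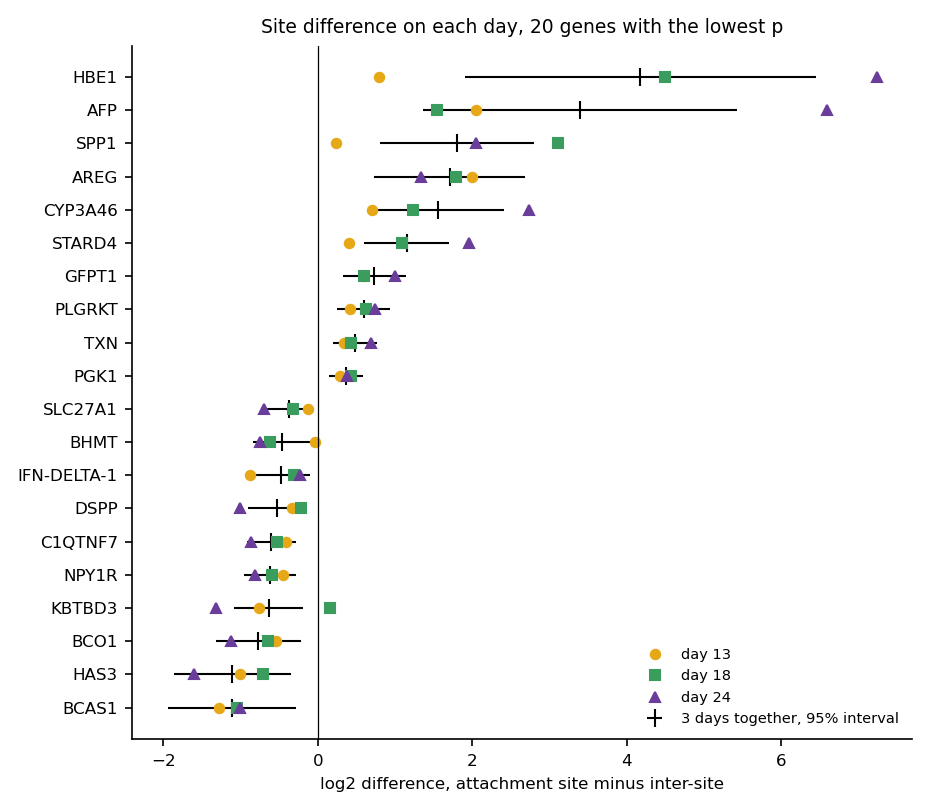
Rows are the 20 genes with the lowest p, 10 on either side of 0, with the log2 difference, attachment site minus inter-site, on the x axis for each day (coloured symbols) and for the 3 days together (bar with its 95% interval). HBE1 and AFP have their largest difference on day 24 (7.24 and 6.59), SPP1 has its largest on day 18 (3.11), and PGK1 has nearly the same value on each day. For AFP on day 13, BCAS1 on day 18, and KBTBD3, BCO1, DSPP and BHMT on day 24, no array of the lower site was well above background, so that symbol marks no measured difference.

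The 5 named genes with the lowest p of this F-test did not pass its adjusted threshold. CYP19A3 (adjusted p = 0.0644) was well above background only on the 3 attachment-site arrays of day 24, at -3.70, -2.28 and -2.38, against -8.88, -6.82 and -7.49 on the inter-site arrays of that day, none of which was well above background. It was therefore at least 8.38-fold higher at attachment sites on day 24. IL6, a cytokine of inflammation and implantation, had 2.59, 2.61 and 3.55 on the attachment-site arrays of day 24, against -1.74, -1.10 and -2.85 at inter-sites, a difference of 4.81 (adjusted p of the F-test 0.123). On days 13 and 18 the IL6 difference was 0.09 and 0.51, and its site ranges overlapped.

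BPI, a neutrophil and epithelial protein that kills bacteria, had levels of -0.30, 1.61 and 2.29 on the attachment-site arrays of day 24, against -5.77, -2.98 and -4.25 at inter-sites, a difference of 5.53. SCGN, a calcium-binding protein, had a difference of 3.16 on day 24 (adjusted p of the F-test 0.478 for both). SCGN was well above background on 3 attachment-site and 2 inter-site arrays. It was tested only through the attachment sites of day 24, so its values rest partly on readings at background. On days 13 and 18 no array had SCGN well above background, and only 1, an inter-site array of day 13, had BPI so. HPSE, heparanase, which cleaves the heparan sulphate of matrix, had -7.10, -6.90 and -7.19 on the attachment-site arrays of day 13, none well above background. Its inter-site levels on that day were -4.90, -6.00 and -5.73, with 1 array well above background, so the size of a day 13 difference was not measured. On day 24 HPSE lay at -3.45, -2.53 and -1.81 at attachment sites, against -5.16, -4.42 and -4.88 at inter-sites. Its difference on day 24 was 2.23 (adjusted p of the F-test 0.579).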

How the data were processed

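RNA of 21 endometrium samples was measured on 1-colour Agilent porcine arrays, and the 18 of pregnant sows were compared. The authors deposited scanner files whose spot intensity had been background-subtracted and detrended within each array by Agilent Feature Extraction. The submitters' processing notes give its version as 10.7, and the file headers as 10.7.3.1. Its 0 or 1 flags for outlier spots, saturation and signal well above background were used as deposited. The authors' deposited table of log2 values, which had a median of 5.85 in each column, served only as an alternative; the program that made it is not given in the sources used, and 2 of its columns, day 24 inter-site replicates 2 and 3, followed each other's scanner files.

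Control spots and 167 outlier spots were left out, copies of a probe were averaged, and log2 processed intensity minus the array's 75th percentile was analysed. No value was imputed: 57 tested probes lack a value on 1 or more arrays and were fitted on the others. Of 43603 probes, 30032 were tested because every array of 1 or more of the 6 groups had them well above background, and 13571 were not tested. Gene symbols came from 5461 probes whose RefSeq accession matched a table of pig genes, and 38142 probes stayed unnamed. The probe with the highest mean stood for a gene with several.

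Limma 3.58.1 under R 4.3.3 (lmFit and eBayes, 14 residual degrees of freedom) fitted site with day as a factor, two-sided, and the site-by-day terms were tested by an F-test. Probes were called at a Benjamini-Hochberg adjusted p under 0.05. The scripts were tested on simulated data. Genes named are the 10 with the lowest p on either side, the 5 with the lowest p of the F-test, list members with an unadjusted p under 0.05, DKK1, FST and PGR, and ATP5I, PLET1 and ACP5, added after their values were seen, and TFAP2C, HAND1, GATA2 and GATA6 as further trophoblast markers. The comparison, the lists and the tests were chosen with earlier results of these data known. Replicate numbers are shared between the sites, but same-numbered arrays of a day did not deviate together in every pair (correlations from -0.11 to 0.49, own number best for 5 of 9), so they were not taken to mark a sow.

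Alternatives were other scalings, normexp background correction (on the median spot and background intensity, offset 50), other filters, slide, replicate number or matching libraries as a block, array weights, all 21 arrays, and leaving out a day, a library or both libraries with low DKK1. Where no array of a group had a gene well above background, its fold is a lower bound: on each such array the dimmer side took either its own signal or the dimmest signal still well above background, whichever was higher. A bound is given only where every array of the brighter side was well above background. No spot was saturated, and the number of arrays limits the precision. Some genes counted in the lists are not reported here by name.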

Additional observations from a re-analysis of the deposited data

Results flagged for a closer look

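Of 160 sets of 9 arrays checked (80 genes at each site), 5 had an array far from the others of its site, and chance flags about 1 in 20. Day was not taken out in this check, so an array may stand apart by its day. CBR1 had 1.92 on day 24 replicate 1 of the inter-sites, SLC2A2 had -3.23 on day 24 replicate 2, GATA3 had 3.12 on day 24 replicate 2, and IGFBP2 had 5.19 on day 24 replicate 3. CD14 had 0.43 on day 18 replicate 2 of the attachment sites, the lowest of that site.

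The F-test of a change between days called 1 unnamed probe, A_72_P334833 (adjusted p 0.0348). The call was lost with slide as a block (lowest adjusted p of any probe 0.449) or as a random block (0.0504), with the replicate block (0.0943), with the stricter filter (0.522) and without both low-DKK1 libraries (0.104). Its levels on day 24 were -2.70, -2.57 and -1.62 at attachment sites, against -5.72, -6.56 and -7.69 at inter-sites, where only the array at -5.72 was well above background. The probe passed the filter only through the attachment sites of day 24, where it is high, so the call rests partly on readings at background. On day 13 the levels were -6.54, -6.21 and -6.82 at attachment sites, against -5.48, -5.70 and -5.00 at inter-sites, where 1 array was well above background.

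HPSE had attachment-site signals all below the inter-site ones on day 13 (-1.52) and all above them on day 24 (2.23). On day 13 no attachment-site array and 1 of 3 inter-site arrays was well above background. The signals of that day therefore do not measure the size of a difference, and a reversal rests on readings near background. The difference between those days was not tested on its own, and the F-test over the 3 days gave an adjusted p of 0.579.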

How the results depend on the processing

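The pooled comparison called 0 probes under every alternative run except the fit on all 21 arrays, which called 1 unnamed probe, higher at attachment sites (adjusted p = 0.0351). Probes with an unadjusted p under 0.05 numbered 3060, and 506 after normexp, 1802 with slide as a block, 3309 with the replicate block, 3961 with matching libraries as a random block (correlation 0.378), 4127 with array weights, 2391 without both low-DKK1 libraries, 2788, 3716 and 1064 without days 13, 18 and 24, and 2148 to 4239 without any 1 library. The replicate block changed no call of the pooled comparison and took away the 1 call of the F-test, and the numbers do not mark a sow. Named genes with an unadjusted p under 0.05 were 192 higher and 39 lower, against 321 and 18 with median centring, 109 and 23 with slide as a block, 73 and 4 after normexp, and 54 and 13 without day 24.

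The F-test called 1 probe, against 2 after normexp, 4 with quantile normalization, the authors' table or array weights, 6 on all 21 arrays, 7 with matching libraries as a random block, and 0 without a filter, with the stricter filter, with slide as a block or random block, with the replicate block (2331 at an unadjusted p under 0.05) and without both low-DKK1 libraries. Without 1 library it called 0 to 6: 6 without attachment-site replicate 1 or inter-site replicate 2 of day 24, 3 and 2 without attachment-site replicates 2 and 1 of day 18, 2 without inter-site replicate 2 of day 13, 1 without inter-site replicate 1 of day 24, and 0 without any other.

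Of 2696 values of 80 genes under 34 settings, 2687 kept their direction, 0 passed the threshold and 9 turned: KBTBD3 (0.0943), DSPP (0.0253) and BHMT (0.21) after normexp, CYP19A3 (-0.27), SCGN (-0.12), BPI (-0.88) and HPSE (-0.54) without day 24, and DKK1 (-0.19) and FST (-0.43) without both low-DKK1 libraries. For the turns after normexp the cause was not tested. Of 116 list medians, 114 stayed within 1 SD between arrays, and 2 moved without both low-DKK1 libraries, secreted uterine proteins (0.27) and granulocytes and mast cells (0.08).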

Other observations

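Subunits of mitochondrial respiration, a group picked after its values were seen and therefore given without a test, had positive differences throughout the named members. All 6 subunits of ATP synthase had positive differences (median 0.33, from 0.27 to 0.39), each with an unadjusted p under 0.05. All 5 subunits of complex I (NADH dehydrogenase, median 0.37), both of complex III (0.31) and all 7 of cytochrome c oxidase (0.32) were also positive. Such a p was met by 3 subunits of complex I, 1 of complex III and 4 of cytochrome c oxidase. These p values are no test of the group, because it was picked by its values. CYCS, cytochrome c, had 0.49 (SE 0.21), and its 12 probes lay between 0.43 and 0.70. The day medians of ATP synthase were 0.24, 0.50 and 0.26 on days 13, 18 and 24. These genes are among the brighter ones, and the 504 named genes with the highest level had a median of 0.16. Of those 504 genes 411 were positive, and 90 had an unadjusted p under 0.05 with higher attachment-site means. After quantile normalization the medians were 0.18 for ATP synthase, 0.23 for complex I, 0.14 for complex III and 0.18 for cytochrome c oxidase.

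The 10 named subunits of the proteasome, which breaks down proteins, likewise had positive differences (median 0.23, from 0.08 to 0.48), and 3 had an unadjusted p under 0.05. Of all named genes 65.8% were positive and 9.52% had such a p with higher attachment-site means. Their day medians were 0.15 on day 13, 0.46 on day 18 and 0.06 on day 24. The fit with slide as a block gave a median of 0.16.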
